A study of Homo sapiens with 12 samples.

Results

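GREB1 is an estrogen-induced gene on the short arm of chromosome 2. It is described here with its paralog GREB1L on chromosome 18 and with 4 genes that lie beside it on chromosome 2, namely E2F6, ROCK2, NTSR2 and LPIN1. These 6 genes were taken by symbol from a deposited table of read counts for 60605 gene IDs, one row each, without regard to their values. Nascent RNA was measured in 12 libraries of T47D cells, an estrogen receptor-positive human luminal breast cancer line, by PRO-seq. In this assay polymerases already on the DNA are made to run on in isolated nuclei, and the RNA they are extending is sequenced, so that transcription under way is counted and not stored RNA. The libraries formed 6 groups of 2. Cells kept in complete medium for 3 days received 100 nM tamoxifen, 100 nM raloxifene, 100 nM fulvestrant or vehicle (0.1% DMSO by volume). Cells starved of hormones for 3 days received 1 nM estradiol or vehicle. Each treatment lasted 1 h. Both the smallest and the largest library were from raloxifene cells (3682311 counts in library 4 and 7856803 in library 3, by the numbers in the sample descriptions). Separate cultures are not stated for the 2 libraries of a group. The p-values therefore reflect only how far these libraries lie apart, which may be technical spread.

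Estradiol binds estrogen receptor alpha, a transcription factor that occupies enhancers near its target genes and recruits coactivators. GREB1 is among the best known direct targets in breast cancer cells, and its protein is a chromatin-bound cofactor of the same receptor. Fulvestrant, a steroid with a long side chain, blocks the receptor and promotes its degradation, whereas raloxifene (a benzothiophene) and tamoxifen (a triphenylethylene) are selective modulators that act as antagonists in breast cells. Of the other genes, GREB1L is known from kidney development. E2F6 encodes an E2F protein without a transactivation domain that represses its targets within a Polycomb complex. ROCK2 encodes a kinase of the actomyosin cytoskeleton, LPIN1 a phosphatidate phosphatase of glycerolipid synthesis, and NTSR2 a receptor of the peptide neurotensin.

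On build GRCh38.p14, GREB1 (ENSG00000196208) spans chromosome 2, 11482888 to 11642788. E2F6 (ENSG00000169016, 11444375 to 11466161, minus strand) lies 16.7 kb from it on the side of lower coordinates, and ROCK2 (ENSG00000134318, 11179759 to 11345437, minus strand) lies 137.5 kb away on the same side. NTSR2 (ENSG00000169006, 11658178 to 11670195, minus strand) lies 15.4 kb away on the other side, followed by LPIN1 (ENSG00000134324, 11677544 to 11827409, plus strand) at 34.8 kb. GREB1L (ENSG00000141449) spans chromosome 18, 21242232 to 21526112, on the plus strand. These positions cover whole protein-coding genes, exons and introns together.

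RefSeq promoter sequences of build GRCh38.p14, from 250 bases before to 50 after a transcription start, were matched by symbol for 5 of the 6 members, E2F6, GREB1L, LPIN1, NTSR2 and ROCK2, in 8 windows of which 3 were of LPIN1 and 2 of ROCK2. Shown are the promoters of E2F6 and GREB1L, which passed a test, beside the farther upstream one of ROCK2, which passed none, and NTSR2, which was almost silent. They were searched on both strands for the full estrogen response element GGTCANNNTGACC, whose arms are each other's reverse complement, and for the single arm GGTCA, which every full element contains. Capitals mark single arms, as GGTCA or, read on the opposite strand, TGACC.
E2F6, chr2:11466112-11466411, minus strand: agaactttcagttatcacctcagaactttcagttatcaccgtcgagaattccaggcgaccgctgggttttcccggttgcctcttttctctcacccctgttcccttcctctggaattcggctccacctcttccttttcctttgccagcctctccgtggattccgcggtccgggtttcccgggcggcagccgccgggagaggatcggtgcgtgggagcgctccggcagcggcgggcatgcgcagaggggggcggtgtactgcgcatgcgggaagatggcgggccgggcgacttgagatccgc
GREB1L, chr18:21241982-21242281, plus strand: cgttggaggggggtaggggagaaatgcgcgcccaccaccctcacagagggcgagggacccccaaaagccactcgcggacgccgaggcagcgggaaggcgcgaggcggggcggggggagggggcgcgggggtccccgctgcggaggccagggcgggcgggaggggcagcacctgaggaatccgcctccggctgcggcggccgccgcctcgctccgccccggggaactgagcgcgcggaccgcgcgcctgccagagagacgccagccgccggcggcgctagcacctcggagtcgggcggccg
ROCK2, chr2:11345388-11345687, minus strand: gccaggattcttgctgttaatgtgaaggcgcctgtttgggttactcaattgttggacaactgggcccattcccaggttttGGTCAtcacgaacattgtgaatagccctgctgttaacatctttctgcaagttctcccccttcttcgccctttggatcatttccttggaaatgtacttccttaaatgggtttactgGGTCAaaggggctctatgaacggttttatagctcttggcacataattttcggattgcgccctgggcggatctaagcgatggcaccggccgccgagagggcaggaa
NTSR2, chr2:11670146-11670445, minus strand: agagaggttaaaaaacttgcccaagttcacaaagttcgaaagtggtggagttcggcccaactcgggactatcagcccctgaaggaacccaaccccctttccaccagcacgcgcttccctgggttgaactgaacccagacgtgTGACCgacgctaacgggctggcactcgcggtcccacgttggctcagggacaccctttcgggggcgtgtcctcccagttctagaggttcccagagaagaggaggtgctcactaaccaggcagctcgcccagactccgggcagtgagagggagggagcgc
The full element was found in none of these 8 windows, and in 20 of all 35116 promoters in the RefSeq table (0.0570%). The single arm was found in 13125 of the 35116 (37.4%). It was absent from the printed windows of E2F6 and GREB1L, occurred in 2 places in that of ROCK2 and in 1 place in that of NTSR2. The other ROCK2 window held it in 1 place, as did 1 of the 3 LPIN1 windows. A match describes letters only, and these windows were not tested for receptor binding.

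GREB1 was transcribed at a high level in every group and over a wider range than its neighbours. Levels are given in CPM, counts scaled to a common library size by TMM. GREB1 had 1110 and 1088 CPM in the tamoxifen libraries 3 and 4, 924 and 965 CPM in the raloxifene libraries and 586 and 591 CPM in the fulvestrant libraries. It had 1487 and 1410 CPM in starved cells given estradiol, 329 and 294 CPM in starved vehicle cells, and 1354 and 1266 CPM in complete vehicle cells. The libraries of every group kept together, and no library of one group fell within the range of another. The counts behind these levels ran from 2014 in starved vehicle library 4 to 9558 in estradiol library 3. GREB1 took 0.145% and 0.138% of all counts in the estradiol libraries, where it ranked 9 and 10 among all genes by count, against 0.0329% and 0.0297% and ranks 245 and 315 in the starved vehicle libraries. In these bulk libraries fewer cells that transcribe a gene and less transcription per cell cannot be told apart.

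**Figure D1:**
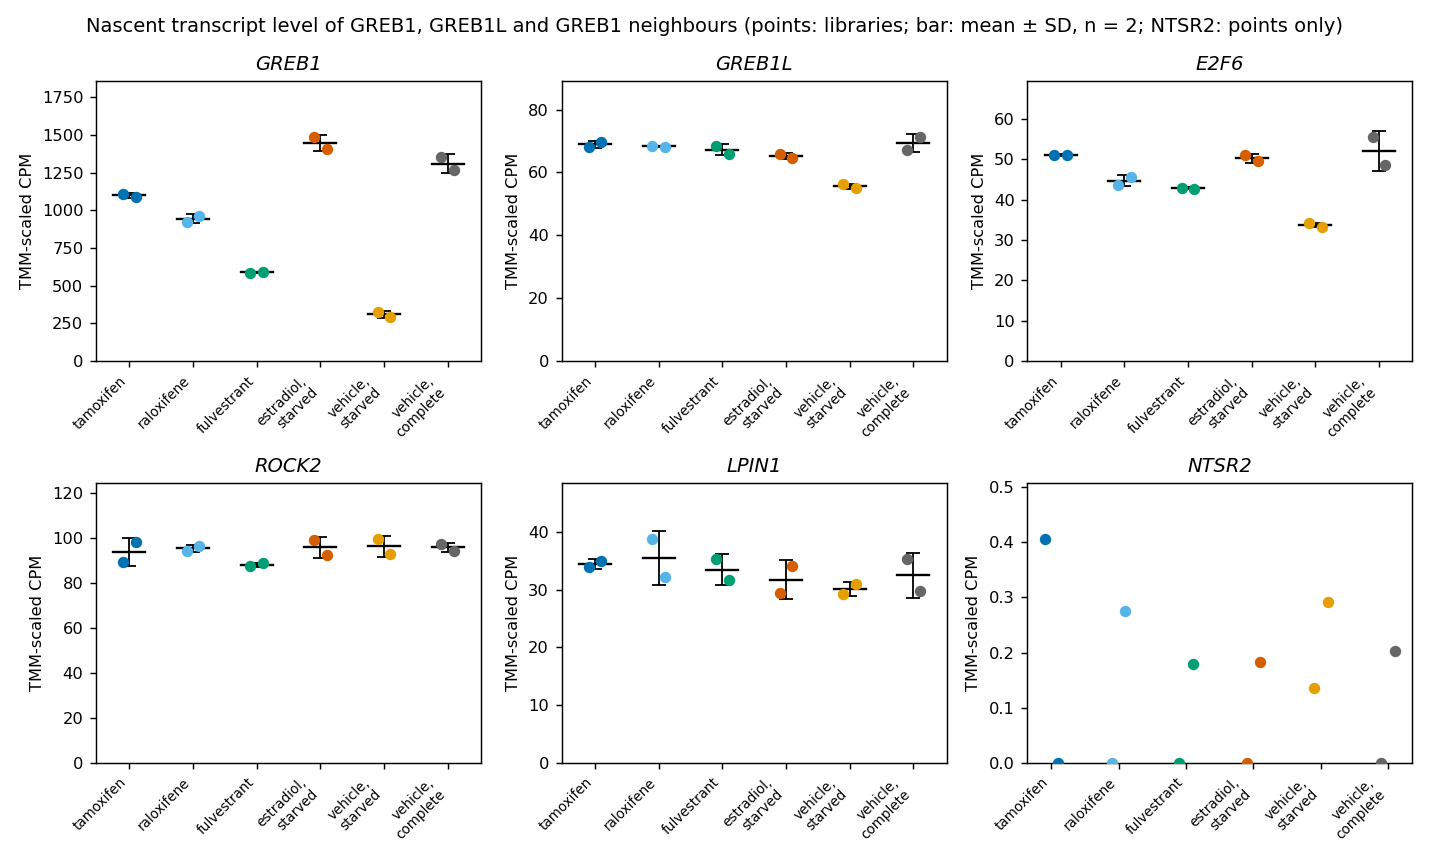
Nascent transcript level (TMM-scaled CPM, linear axis from 0, one scale per panel) of GREB1, GREB1L, E2F6, ROCK2, LPIN1 and NTSR2 in 6 groups of T47D libraries. Points are libraries and black bars are the mean ± SD of 2 libraries, except for NTSR2, which is drawn as points only. GREB1 runs from 294 to 1487 CPM and follows the groups, E2F6 follows a similar order over a narrower range, and ROCK2 stays between 87.5 and 99.7 CPM.

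Estradiol raised GREB1 in starved cells within 1 h. GREB1 averaged 1448 ± 55 CPM with estradiol and 311 ± 24 CPM with vehicle (SD, n = 2 each). The fitted log2 fold change was 2.22 ± 0.055, with a 95% interval of 2.10 to 2.33 (adjusted p = 2.07e-16). Here and below the error of a log2 value is the fit's standard error, and p comes from the quasi-likelihood test of edgeR after Benjamini-Hochberg adjustment. By p-value GREB1 ranked 2 among the 23375 genes tested. E2F6 was the other member that rose. Of the 6 members 5 had enough counts for the test, NTSR2 being the exception, and 2 of them were higher and 0 lower with estradiol, where 5.04% of all tested genes were higher and 3.74% were lower. Those that did not pass were GREB1L, which had a log2 fold change of 0.23 ± 0.075 (adjusted p = 0.0623), LPIN1 of 0.07 ± 0.120 and ROCK2 of -0.01 ± 0.070.

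Hormone starvation was set against complete medium in vehicle cells. GREB1 averaged 311 ± 24 CPM in starved vehicle cells and 1310 ± 62 CPM in complete vehicle cells, a log2 fold change of -2.07 ± 0.055 (95% interval -2.19 to -1.96, adjusted p = 1.39e-15), and ranked 1 by p-value. In this comparison 3 of the 5 tested members were lower (GREB1, E2F6 and GREB1L) and 0 were higher, where 9.67% of all tested genes were lower and 9.10% were higher. By DESeq2 2 members were lower (GREB1 and E2F6), and the call on GREB1L was lost. The 7 luminal markers fixed to check the cell line summed to between 3317 and 3361 CPM in starved vehicle cells and between 5174 and 5243 CPM in complete vehicle cells. This list includes ESR1 and PGR, which themselves respond to estrogen, and its part in the results on starvation was not tested. All 7 luminal markers were detected, whereas over all libraries 5 basal and mesenchymal markers summed to at most 15.2 CPM and 5 stromal, endothelial and blood markers to at most 29.9 CPM.

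The estradiol-treated starved cells came to a GREB1 level near that of complete medium. GREB1 averaged 1448 ± 55 CPM in starved cells given estradiol and 1310 ± 62 CPM in complete vehicle cells, a log2 fold change of 0.14 ± 0.051 (95% interval 0.037 to 0.25) that did not pass the threshold (adjusted p = 0.0619). None of the 5 tested members passed in this comparison by edgeR's test or by DESeq2, 1 of them (GREB1) had an unadjusted p under 0.05, and 16.2% of all tested genes passed. The call on GREB1 depended on the setting, and without the filter on low counts it was higher (adjusted p = 0.00208).

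The 3 drugs shared a dose and a time, and each was set against vehicle-treated cells in complete medium. Fulvestrant lowered GREB1 most, to 589 ± 3.4 CPM against 1310 ± 62 CPM with vehicle, a log2 fold change of -1.15 ± 0.053 (95% interval -1.26 to -1.04, adjusted p = 3.09e-11, rank 2 by p-value). Raloxifene lowered it to 944 ± 29 CPM, a log2 fold change of -0.47 ± 0.052 (95% interval -0.58 to -0.37, adjusted p = 4.18e-05, rank 9). In both comparisons GREB1 was the 1 tested member of 5 that passed, where 1.05% of all tested genes were lower and 0.107% higher with fulvestrant, and 0.479% were lower and 0.0898% higher with raloxifene. The raloxifene balance over all genes rested on library 3, without which 148 genes were higher and 56 lower, against 21 and 112 with it. With tamoxifen GREB1 averaged 1099 ± 16 CPM, a log2 fold change of -0.25 ± 0.052 (95% interval -0.36 to -0.15), with an adjusted p of 0.0975 that missed the threshold. By edgeR's test 0 of the 5 tested members passed with tamoxifen, where 0.0513% of all tested genes did. GREB1 was the 1 member with an unadjusted p under 0.05. It passed in 3 of 10 alternatives, among them DESeq2 (adjusted p = 0.0223) and edgeR's test without the filter on low counts (adjusted p = 6.33e-05). Both tamoxifen libraries lay below both vehicle libraries, an order whose share over all tested genes is not given.

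The drugs were also compared with each other in 3 pairs. GREB1 was higher with tamoxifen than with fulvestrant (1099 ± 16 and 589 ± 3.4 CPM), a log2 difference of 0.90 ± 0.053 (95% interval 0.79 to 1.01, adjusted p = 3.24e-09), and it ranked 1 of 23375 genes by p-value. GREB1 was also higher with raloxifene than with fulvestrant (944 ± 29 and 589 ± 3.4 CPM), by 0.68 ± 0.053 (95% interval 0.57 to 0.79, adjusted p = 1.11e-06), again at rank 1. It was the 1 member that passed in each pair, where 0.453% of all tested genes were higher with tamoxifen than with fulvestrant and 0.103% were higher with raloxifene than with fulvestrant. Tamoxifen and raloxifene differed by 0.22 ± 0.052 (1099 ± 16 and 944 ± 29 CPM, 95% interval 0.11 to 0.33). This pair did not pass over all genes (adjusted p = 0.739). The 2 tamoxifen libraries lay above the 2 raloxifene libraries, but how many of all tested genes separate in this way is not given. In the tamoxifen and raloxifene pair 0 of the 5 tested members passed by edgeR's test or by DESeq2, 2 had an unadjusted p under 0.05 (GREB1 and E2F6), and 0.00428% of all tested genes passed. The call on GREB1 depended on the setting. It passed in 2 of 10 alternatives, one of them edgeR's test without the filter on low counts (adjusted p = 0.00107). A p that misses the threshold does not show that these 2 modulators act alike on GREB1.

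GREB1 was higher after 1 h of fulvestrant in complete medium than in starved vehicle cells. GREB1 averaged 589 ± 3.4 CPM with fulvestrant and 311 ± 24 CPM in starved vehicle cells, a log2 difference of 0.92 ± 0.055 (95% interval 0.80 to 1.03, adjusted p = 2.61e-10). In this comparison 3 of the 5 tested members were higher (GREB1, E2F6 and GREB1L) and 0 were lower, where 8.08% of all tested genes were higher and 8.15% were lower. By DESeq2 1 member was higher (GREB1), and the calls on E2F6 and GREB1L were lost. Medium and drug differ together here, so their parts cannot be told apart. From high to low, the GREB1 order was estradiol in starved cells, complete vehicle, tamoxifen, raloxifene, fulvestrant and starved vehicle. Neighbours in this order that did not pass the threshold were estradiol and complete vehicle, complete vehicle and tamoxifen, and tamoxifen and raloxifene. These pairs passed for GREB1 in 3, 3 and 2 of 10 alternatives, among them a fit with the library number as a block. Several of these comparisons share a control group, and their values are therefore not independent of each other.

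**Figure D2:**
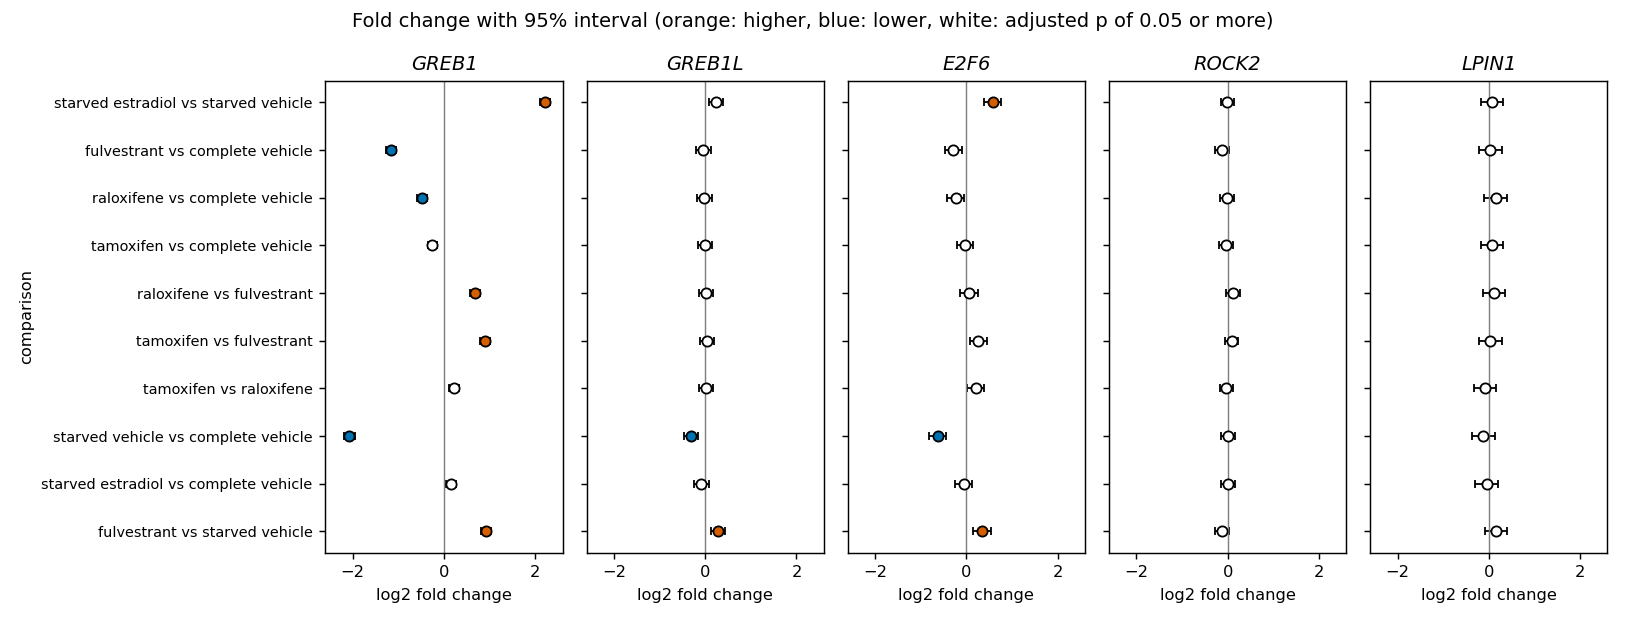
Log2 fold change (x axis) with its 95% interval for GREB1, GREB1L, E2F6, ROCK2 and LPIN1 in 10 comparisons (y axis), from one edgeR fit to 12 libraries. Filled points have an adjusted p under 0.05 (orange higher, blue lower in the first-named group). GREB1 passes in 7 of 10 comparisons and E2F6 and GREB1L in 3 and 2, and no point of ROCK2 or LPIN1 is filled.

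The paralog GREB1L varied little. GREB1L had 68.0 and 69.8 CPM with tamoxifen, 68.3 and 68.2 CPM with raloxifene, and 68.5 and 66.0 CPM with fulvestrant. It had 66.0 and 64.6 CPM with estradiol, 56.2 and 55.1 CPM in starved vehicle cells, and 67.3 and 71.3 CPM in complete vehicle cells. The 2 starved vehicle libraries were the lowest of the 12, and the other groups lay close together. In starved vehicle cells against complete vehicle cells GREB1L averaged 55.7 ± 0.78 and 69.3 ± 2.8 CPM, a log2 fold change of -0.31 ± 0.075 (adjusted p = 0.00492). That call was lost without starved vehicle library 4 (adjusted p = 0.0554), without complete vehicle library 4 (0.0778) and by DESeq2 (0.0728). GREB1L was also higher with fulvestrant than in starved vehicle cells, by 0.27 ± 0.075 (adjusted p = 0.0148), a call that was lost when any 1 of the 4 libraries was left out (adjusted p from 0.0573 to 0.146), without the filter on low counts (0.0899) and by DESeq2 (0.163). Its difference with estradiol missed the threshold (0.23 ± 0.075, adjusted p = 0.0623), and passed in 2 of 10 alternatives, one of them a fit of only the 4 libraries compared (adjusted p = 0.0491). Against complete vehicle, GREB1L had log2 fold changes of -0.01 ± 0.074 with tamoxifen, -0.02 ± 0.076 with raloxifene and -0.04 ± 0.075 with fulvestrant.

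Of the 4 neighbours E2F6 was the 1 that passed a test. E2F6 had 51.0 and 51.2 CPM with tamoxifen, 43.7 and 45.7 CPM with raloxifene, and 43.0 and 42.6 CPM with fulvestrant. It had 51.0 and 49.5 CPM with estradiol, 34.1 and 33.3 CPM in starved vehicle cells, and 55.5 and 48.5 CPM in complete vehicle cells. The starved vehicle libraries were the lowest of the 12, and the fulvestrant and raloxifene libraries came next, below every tamoxifen, estradiol and complete vehicle library. E2F6 rose with estradiol to 50.3 ± 1.1 CPM, against 33.7 ± 0.57 CPM with vehicle in starved cells, a log2 fold change of 0.58 ± 0.091 (95% interval 0.39 to 0.77, adjusted p = 0.000162). In starved vehicle cells against complete vehicle cells it averaged 33.7 ± 0.57 and 52.0 ± 5.0 CPM, a log2 fold change of -0.63 ± 0.092 (adjusted p = 3.45e-05).

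With the drugs, E2F6 did not pass the threshold against vehicle. Its log2 fold changes were -0.29 ± 0.091 with fulvestrant (95% interval -0.48 to -0.098, adjusted p = 0.244), -0.23 ± 0.092 with raloxifene (-0.43 to -0.043, adjusted p = 0.403) and -0.03 ± 0.087 with tamoxifen (-0.21 to 0.15). Both fulvestrant and raloxifene libraries lay below both vehicle libraries, whereas the tamoxifen libraries fell between them. The share of all tested genes with such an order is not given. Between drugs, E2F6 differed by 0.25 ± 0.089 for tamoxifen over fulvestrant (adjusted p = 0.609), which also did not pass. E2F6 was higher with fulvestrant than in starved vehicle cells (42.8 ± 0.25 and 33.7 ± 0.57 CPM, a log2 difference of 0.34 ± 0.094, adjusted p = 0.0151). That call was lost when any 1 of the 4 libraries was left out (adjusted p from 0.0807 to 0.112), without the filter on low counts (0.0574) and by DESeq2 (0.144).

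ROCK2, farther out on the same side as E2F6, stayed nearly level. Across the 12 libraries ROCK2 ran from 87.5 to 99.7 CPM. Its group means were 93.8 ± 6.2 CPM with tamoxifen, 95.4 ± 1.6 with raloxifene, 88.2 ± 0.90 with fulvestrant, 95.8 ± 4.8 with estradiol, 96.3 ± 4.8 in starved vehicle cells and 95.8 ± 2.2 in complete vehicle cells. The 2 fulvestrant libraries were the lowest of the 12, with log2 fold changes of -0.12 ± 0.073 against complete vehicle (95% interval -0.27 to 0.032) and -0.13 ± 0.071 against starved vehicle (-0.28 to 0.020). ROCK2 passed in no comparison under any of the settings tried. For estradiol over vehicle its 95% interval ran from -0.15 to 0.14.

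LPIN1, on the far side of NTSR2, also passed in no comparison under any setting tried. It ran from 29.3 to 38.9 CPM over the 12 libraries. LPIN1 averaged 34.5 ± 0.84 CPM with tamoxifen, 35.5 ± 4.7 with raloxifene, 33.5 ± 2.6 with fulvestrant, 31.8 ± 3.4 with estradiol, 30.1 ± 1.2 in starved vehicle cells and 32.5 ± 3.9 in complete vehicle cells. Its groups overlapped in most comparisons, and its interval for estradiol over vehicle, from -0.18 to 0.32, was wider than that of ROCK2.

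NTSR2, which lies between GREB1 and LPIN1, was almost without signal. It had 3 and 0 counts with tamoxifen, 0 and 1 with raloxifene, and 0 and 1 with fulvestrant. It had 0 and 1 counts with estradiol, 1 and 2 in starved vehicle cells, and 0 and 1 in complete vehicle cells. The 12 libraries held 10 counts of this gene in all, no library had more than 3, and no group stood apart. NTSR2 did not pass the filter on low counts and no fold change is given. A difference between groups was not detectable at this depth, and without the filter its adjusted p ranged from 0.903 to 1.

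Levels of different genes were compared per kilobase of gene span, with all members on the same scale. GREB1 held 6.94 and 6.80 CPM per kb with tamoxifen, 9.30 and 8.82 with estradiol, 2.05 and 1.84 in starved vehicle cells, and 8.47 and 7.92 in complete vehicle cells. E2F6 held between 1.53 and 2.55 CPM per kb, ROCK2 between 0.528 and 0.602, LPIN1 between 0.195 and 0.259 and GREB1L between 0.194 and 0.251. NTSR2 reached at most 0.0338 CPM per kb. The ranges of GREB1 and E2F6 overlapped only where GREB1 was in the starved vehicle state. The counted part of a gene was not given in the sources used here, and these densities assume the whole span.

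Counts of GREB1 divided by those of another member in the same library do not depend on how libraries are scaled. GREB1 had 29.1 and 28.5 counts per E2F6 count with estradiol, against 9.63 and 8.83 with vehicle in starved cells. Per E2F6 count it had 21.8 and 21.2 counts with tamoxifen, 21.2 and 21.1 with raloxifene, and 13.6 and 13.9 with fulvestrant, against 24.4 and 26.1 with vehicle in complete medium. All drug libraries therefore lay below both complete vehicle libraries, and tamoxifen and raloxifene were close to each other on this ratio. E2F6 itself was lower with raloxifene than with tamoxifen (43.7 and 45.7 against 51.0 and 51.2 CPM). Per GREB1L count GREB1 had 16.3 and 15.6 counts with tamoxifen and 13.5 and 14.1 with raloxifene. For ROCK2 these values were 12.4 and 11.1 with tamoxifen and 9.80 and 9.99 with raloxifene. Per ROCK2 count GREB1 had 15.0 and 15.3 counts with estradiol against 3.30 and 3.17 with vehicle in starved cells, and 6.70 and 6.66 with fulvestrant against 13.9 and 13.4 with vehicle in complete medium. With 2 libraries against 2 an exact test on such ratios cannot go below p = 0.333, so none is given.

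**Figure D3:**
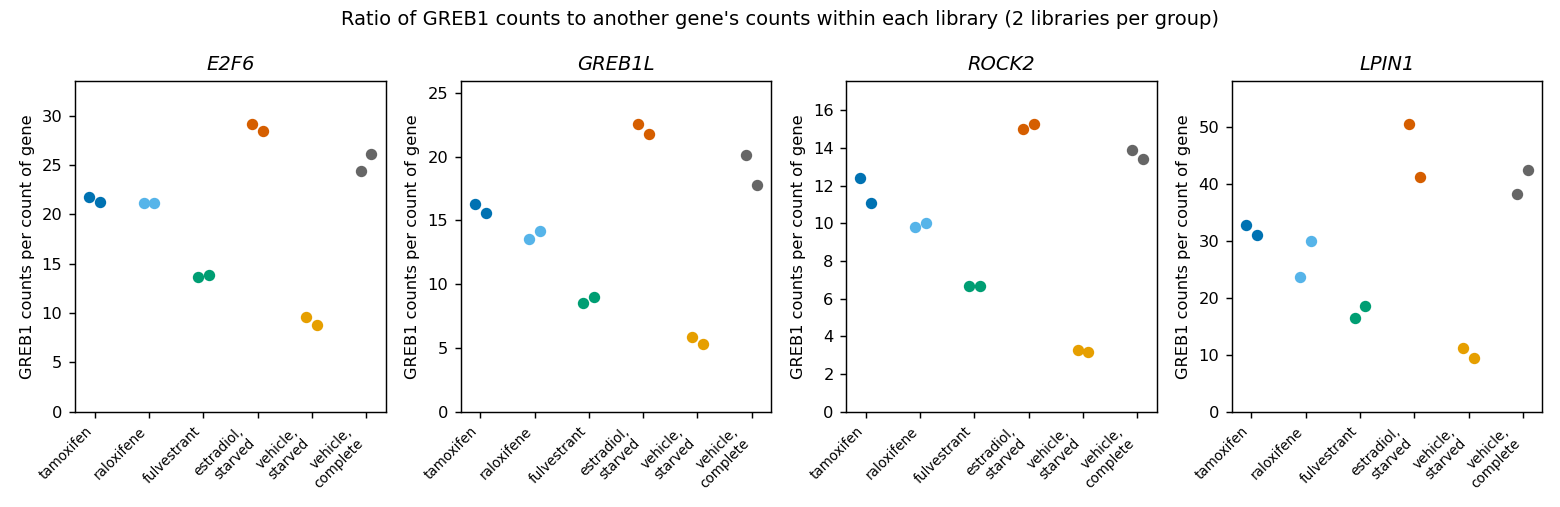
GREB1 counts per count of E2F6, GREB1L, ROCK2 or LPIN1 within each library (y axis, linear from 0), by group; each point is one library. In all 4 panels the estradiol libraries lie above and the starved vehicle libraries below every other library except for LPIN1, where 1 estradiol library lies among the complete vehicle libraries.

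Across the 6 groups GREB1 had one of the widest ranges of the genes tested. The difference between its highest and lowest group mean was 2.22 on the log2 CPM scale, at rank 37 of the 14629 genes that averaged 50 counts or more, and 0.246% of those genes had a wider range. The range of E2F6 was 0.62 (16.3% of genes wider), that of GREB1L 0.31, that of LPIN1 0.23 (74.6%) and that of ROCK2 0.13 (94.6%). The median over these genes was 0.34. GREB1L, LPIN1 and ROCK2 thus lay below the median range, and E2F6 lay above it.

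Within 1 Mb of GREB1 the count table held 29 other genes, of which 15 were tested. With estradiol 2 of these 15 were higher and 0 lower, where 5.04% and 3.74% of all tested genes were. They were E2F6 and RNU2-13P, a U2 small nuclear RNA pseudogene inside GREB1. In starved against complete vehicle cells 4 were lower and 0 higher, where 9.67% and 9.10% of all tested genes were, namely E2F6, RNU2-13P, the pseudogene RN7SL674P and C2orf50. Of the 12 tested genes outside the GREB1 span, E2F6 was the 1 that was higher with estradiol, and E2F6 and C2orf50 were the 2 that were lower in starved cells. C2orf50 (RefSeq symbol CIMIP5, chromosome 2, 11133128 to 11154576, 328.3 kb from GREB1) averaged 5.33 ± 0.31 CPM in starved vehicle cells and 11.8 ± 1.2 CPM in complete vehicle cells, a log2 fold change of -1.13 ± 0.201 (adjusted p = 0.000308). It was also lower in starved cells given estradiol than in complete vehicle cells (7.56 ± 1.4 and 11.8 ± 1.2 CPM, a log2 fold change of -0.62 ± 0.194, adjusted p = 0.0328), a call lost without estradiol library 4 or either complete vehicle library (adjusted p up to 0.256), without the filter on low counts and by DESeq2. Its libraries with fulvestrant (6.65 and 6.95 CPM) lay below both with vehicle in complete medium, without passing the threshold. How many of all tested genes show this order is not given.

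The remaining named genes of this window lie inside GREB1. RNU2-13P averaged 1.34 ± 0.086 CPM with estradiol and 0.282 ± 0.015 CPM with vehicle in starved cells, a log2 fold change of 2.18 ± 0.634 (adjusted p = 0.0344) that was lost when any 1 of the 4 libraries was left out (adjusted p up to 0.218). In starved against complete vehicle cells its log2 fold change was -2.84 ± 0.585 (adjusted p = 0.00135). RNU2-13P held 91 counts over all 12 libraries, and DESeq2 called no gene inside GREB1 in this comparison. RN7SL674P, a 7SL pseudogene, changed by -1.22 ± 0.331 in the same comparison (adjusted p = 0.0119) and by -1.51 ± 0.360 with fulvestrant against vehicle (adjusted p = 0.04). The first RN7SL674P call was lost without library 3 of either group (adjusted p up to 0.178) and by DESeq2, and the second when any 1 of the 4 libraries was left out (up to 0.396). Together with MIR4429 and RNA5SP84 they held 452 counts, against 68842 for GREB1 (0.657%). Reads of a gene inside GREB1 cannot be told from reads of GREB1 itself without knowing how counts were assigned. The mature miRNA of MIR4429 is shown, with its seed (bases 2 to 8) in capitals, because its hairpin lies within the GREB1 span and its counts are among those that cannot be separated.
hsa-miR-4429, chr2:11540652-11540671, minus strand: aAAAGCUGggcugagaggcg
In the window 0 of 15 genes passed with raloxifene and 0 with tamoxifen against vehicle by edgeR's test or by DESeq2, with 3 and 0 at an unadjusted p under 0.05. Over all tested genes 0.479% were lower and 0.0898% higher with raloxifene, and 0.0513% passed with tamoxifen. The median log2 fold change of the 15 was 0.33 with estradiol, beside -0.01 over all tested genes, and -0.18 in starved against complete vehicle cells, beside 0.01 over all. For the 12 outside the GREB1 span, a subset taken after the values were seen, the medians were 0.18 and -0.13.

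**Figure D4:**
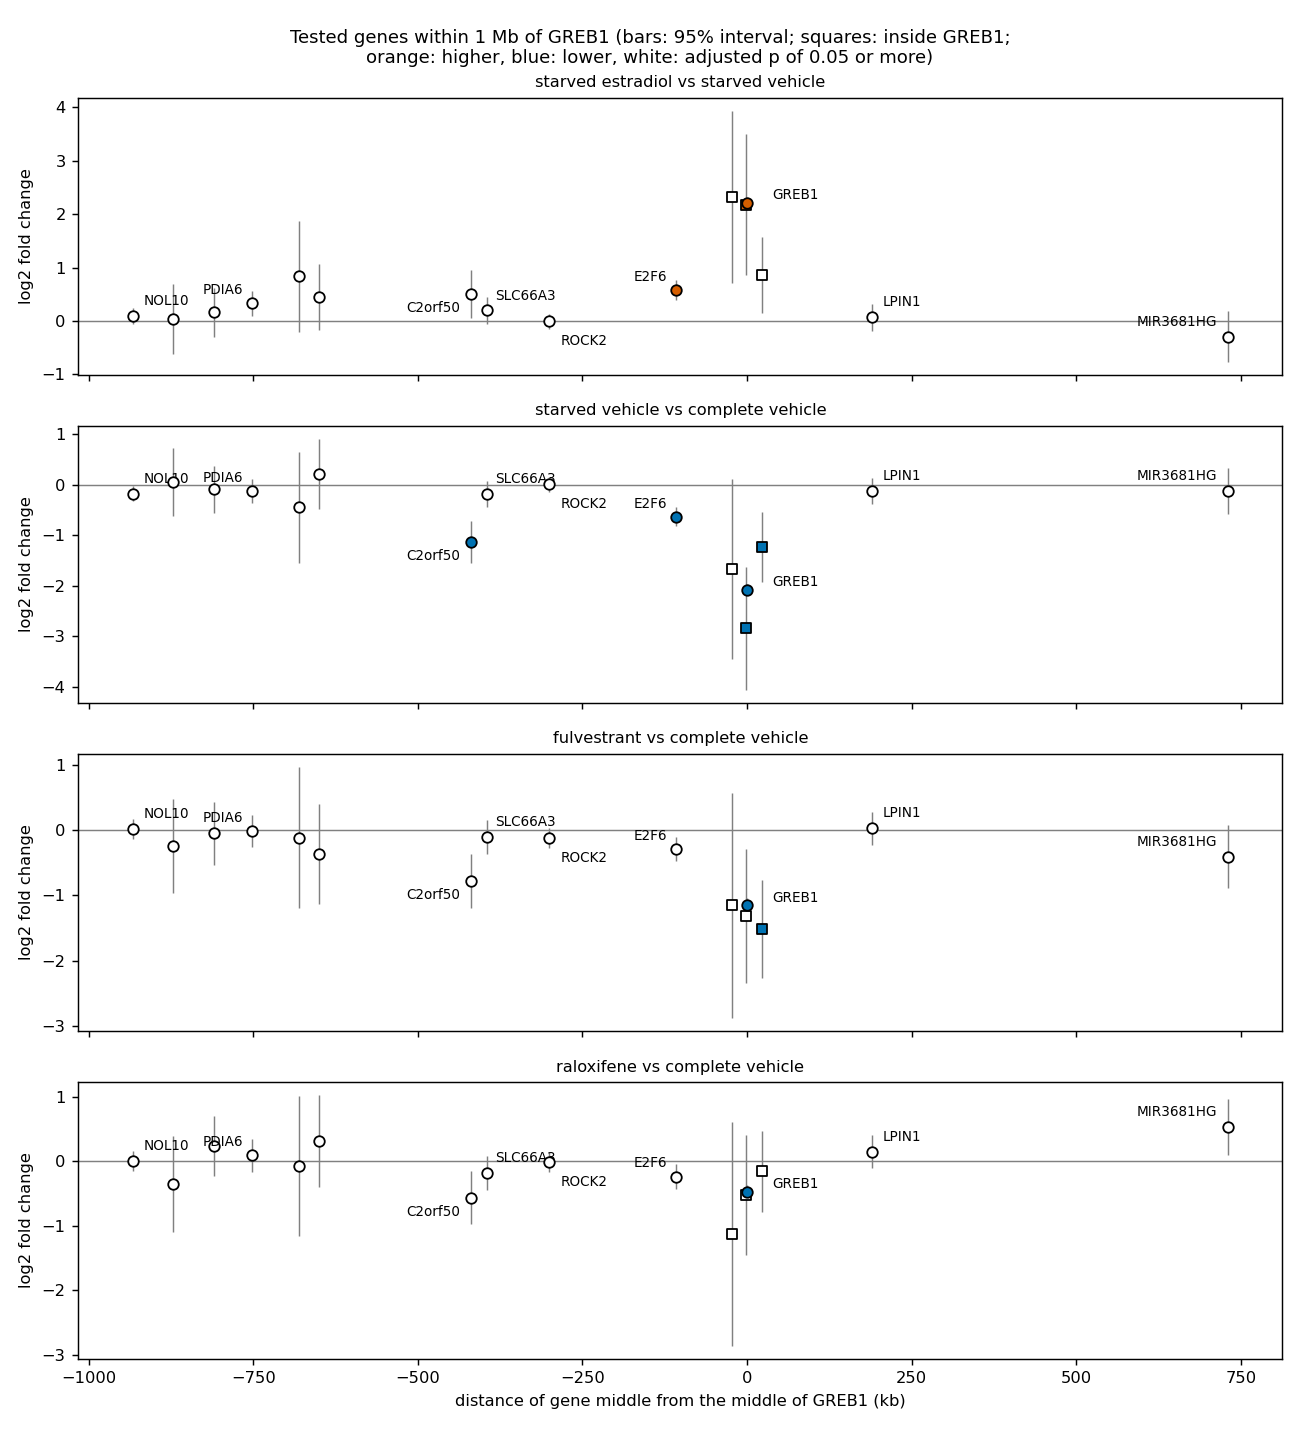
Log2 fold change with its 95% interval (y axis) of the tested genes within 1 Mb of GREB1, against the distance of each gene's middle from the middle of GREB1 (x axis, kb), in 4 comparisons. Filled symbols have an adjusted p under 0.05 (orange higher, blue lower) and squares are genes inside GREB1. E2F6 and, in starved vehicle cells, C2orf50 are the filled circles apart from GREB1, and ROCK2 and LPIN1 sit at 0 within their intervals.

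The receptor and its chromatin partners, 12 genes around the pathway through which GREB1 is induced, moved in both directions. ESR1, the gene of estrogen receptor alpha, averaged 1391 CPM with estradiol and 1028 CPM with vehicle in starved cells, a log2 fold change of 0.44 ± 0.040 (adjusted p = 1.05e-07). With estradiol 3 of the 12 were higher, namely ESR1, the corepressor NRIP1 (1.11 ± 0.064) and TFAP2C (0.30 ± 0.086). In the same comparison 4 were lower, namely TFAP2A (-0.54), the coactivators NCOA3 (-0.43) and NCOA2 (-0.17), and the pioneer factor FOXA1 (-0.39). The calls on TFAP2C and NCOA2 were lost in 5 and 6 of 10 alternatives, among them leaving out either starved vehicle library, estradiol library 4 (TFAP2C) or estradiol library 3 (NCOA2), with adjusted p up to 0.313 and 0.375. Over all tested genes 5.04% were higher and 3.74% lower. The median of the 12 was -0.01, as it was over all tested genes. With fulvestrant 3 were lower and 0 higher, where 1.05% and 0.107% of all tested genes were, namely NRIP1 (-0.78 ± 0.065), TFAP2C (-0.41) and ESR1 (-0.24 ± 0.040, adjusted p = 0.00170). The TFAP2C call was lost without complete vehicle library 3 or either fulvestrant library (adjusted p up to 0.683). NRIP1 was the 1 that was lower with raloxifene (-0.43 ± 0.064). With tamoxifen 0 of the 12 passed by either tool, with 4 at an unadjusted p under 0.05. Over all tested genes 0.479% were lower and 0.0898% higher with raloxifene, and 0.0513% passed with tamoxifen. NRIP1 was higher with tamoxifen than with fulvestrant (0.46 ± 0.065, adjusted p = 0.000495).

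Starvation also lowered the receptor gene. ESR1 averaged 1028 CPM in starved vehicle cells and 1996 CPM in complete vehicle cells, a log2 fold change of -0.96 ± 0.040 (adjusted p = 6.40e-13), and NRIP1 changed by -1.07 ± 0.065. TFAP2C was the other 1 of the 12 that was lower (-0.34 ± 0.086), and NCOA3 (0.32 ± 0.053) and TFAP2A (0.18 ± 0.052) were higher. Over all tested genes 9.67% were lower and 9.10% higher. The TFAP2C call was lost without library 3 of either group (adjusted p up to 0.346), and that of TFAP2A without starved vehicle library 4 or either complete vehicle library (up to 0.25) and by DESeq2. ESR1 was lower in starved cells given estradiol than in complete vehicle cells (1391 and 1996 CPM, a log2 fold change of -0.52 ± 0.040, adjusted p = 9.73e-09). In that comparison 4 of the 12, ESR1 among them, were lower and 0 higher, where 16.2% of all tested genes passed in either direction.

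E2F6's relatives were followed in a list of 18 genes holding the other E2F factors and the subunits of the Polycomb complex that contains E2F6, of which 17 were tested. With estradiol 1 was higher, MAX (0.55 ± 0.063, adjusted p = 2.42e-06), a partner of E2F6 in that complex, and 0 were lower. Over all tested genes 5.04% were higher and 3.74% lower with estradiol. Against vehicle, 1.05% of all tested genes were lower and 0.107% higher with fulvestrant, 0.479% and 0.0898% with raloxifene, and 0.0513% passed with tamoxifen. With each of the 3 drugs against vehicle 0 of the 17 passed by edgeR's test or by DESeq2, with 0, 2 and 1 at an unadjusted p under 0.05 for fulvestrant, raloxifene and tamoxifen. In starved against complete vehicle cells 5 were lower, the cell cycle E2F genes E2F7 (-0.78 ± 0.075), E2F8 (-0.81 ± 0.148), E2F2 (-0.54 ± 0.128) and E2F1 (-0.46 ± 0.129) and the Polycomb complex member CBX3, and 1 was higher, RYBP (0.24). Of these calls E2F1 was lost without starved vehicle library 3 or complete vehicle library 4 (adjusted p up to 0.244), and E2F2 without starved vehicle library 4 or complete vehicle library 3 (up to 0.0964). CBX3 was lost without starved vehicle library 3 or either complete vehicle library (up to 0.292), and RYBP without either starved vehicle library or complete vehicle library 4 (up to 0.109). DESeq2 also lost E2F1, CBX3 and RYBP, and CBX3 was lost without the filter on low counts. Over all tested genes 9.67% were lower and 9.10% higher with starvation. The 4 cell cycle E2F genes did not pass with estradiol, where their log2 fold changes lay between -0.20 and 0.06. With starvation the median of the 17 was -0.09, beside 0.01 over all tested genes.

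ROCK2's pathway was represented by 16 tested genes of small GTPase signalling and myosin. With estradiol 0 of them passed by either tool, with 5 at an unadjusted p under 0.05. Over all tested genes 5.04% were higher and 3.74% lower. The paralog ROCK1 had 141 CPM with estradiol and 140 CPM with vehicle in starved cells (log2 fold change 0.01 ± 0.064). In starved against complete vehicle cells 4 were higher, namely the myosin light chain MYL12B (0.57 ± 0.078), the small GTPases RND3 (0.54 ± 0.090) and RHOB (0.48 ± 0.095), and the myosin heavy chain MYH9 (0.46 ± 0.051). ROCK1 was the 1 that was lower (-0.20 ± 0.064, adjusted p = 0.0334), a call lost when any 1 of the 4 libraries was left out (adjusted p up to 0.24), with library totals in place of TMM, without the filter on low counts and by DESeq2. Over all tested genes 9.10% were higher and 9.67% lower with starvation. Against vehicle, 1.05% of all tested genes were lower and 0.107% higher with fulvestrant, 0.479% and 0.0898% with raloxifene, and 0.0513% passed with tamoxifen. With the drugs against vehicle 0 of the 16 passed by either tool, with 2, 2 and 0 at an unadjusted p under 0.05 for fulvestrant, raloxifene and tamoxifen.

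LPIN1's pathway, glycerolipid synthesis, was represented by 17 tested genes. With estradiol 0 passed by either tool, with 4 at an unadjusted p under 0.05. Over all tested genes 5.04% were higher and 3.74% lower. The paralog LPIN3 averaged 27.5 CPM with estradiol and 30.9 CPM with vehicle in starved cells, and LPIN2 stayed under 3 CPM in the group means. In starved against complete vehicle cells PLPP3, a lipid phosphate phosphatase, was lower (31.8 and 50.7 CPM, a log2 fold change of -0.67 ± 0.094, adjusted p = 2.33e-05), and the CDP-diacylglycerol synthase genes CDS1 (0.28 ± 0.076) and CDS2 (0.24 ± 0.081) were higher. Both CDS calls were lost without either complete vehicle library, CDS1 also without starved vehicle library 3 and CDS2 without starved vehicle library 4 (adjusted p up to 0.116 and 0.365), and both by DESeq2. Over all tested genes 9.10% were higher and 9.67% lower with starvation. Against vehicle, 1.05% of all tested genes were lower and 0.107% higher with fulvestrant, 0.479% and 0.0898% with raloxifene, and 0.0513% passed with tamoxifen. With the drugs against vehicle 0 of the 17 passed by either tool, with 1, 3 and 1 at an unadjusted p under 0.05 for fulvestrant, raloxifene and tamoxifen. Of the neurotensin system, NTSR1 had group means of about 1 to 2 CPM, and SORT1, a sorting receptor that also binds neurotensin, was higher in starved than in complete vehicle cells (88.3 and 74.4 CPM, 0.25 ± 0.078, adjusted p = 0.0324). The SORT1 call was lost without starved vehicle library 4 or either complete vehicle library (adjusted p up to 0.375) and by DESeq2.

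Genes with the most similar profile to GREB1 were found by the root-mean-square difference between profiles of mean log2 CPM over the 6 groups, each profile centred on its own mean. This likeness is a description over 6 group means from shared libraries, and GREB1's own values fixed the choice. Among 14628 candidates with a median difference of 0.775, the nearest were ITPK1 (0.0722), an inositol phosphate kinase gene on chromosome 14, the long non-coding RNA LINC02568 (0.136) and MYB (0.144), a proto-oncogene transcription factor. They were followed by ENSG00000229512 (0.192), FMN1 (0.203), a formin gene, KCTD6 (0.210), ENSG00000253141 (0.219) and PTGES (0.222), which encodes a prostaglandin E synthase. None of the 6 that have a symbol lies on chromosome 2 in the RefSeq table, and E2F6 came at rank 218 (0.562). GREB1L came at rank 1077, LPIN1 at 3595 and ROCK2 at 5703. ITPK1 averaged 210 ± 17 CPM with tamoxifen, 180 ± 13 with raloxifene, 121 ± 2.3 with fulvestrant, 272 ± 19 with estradiol, 60.9 ± 0.40 in starved vehicle cells and 228 ± 8.6 in complete vehicle cells. MYB averaged 85.6 ± 7.3 CPM with estradiol and 15.3 ± 0.97 CPM in starved vehicle cells, and 39.1 ± 6.5 CPM with fulvestrant and 83.5 ± 4.7 CPM in complete vehicle cells. By Pearson's r in place of the difference, 1 of the 8 nearest genes was shared (ITPK1).

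**Figure D5:**
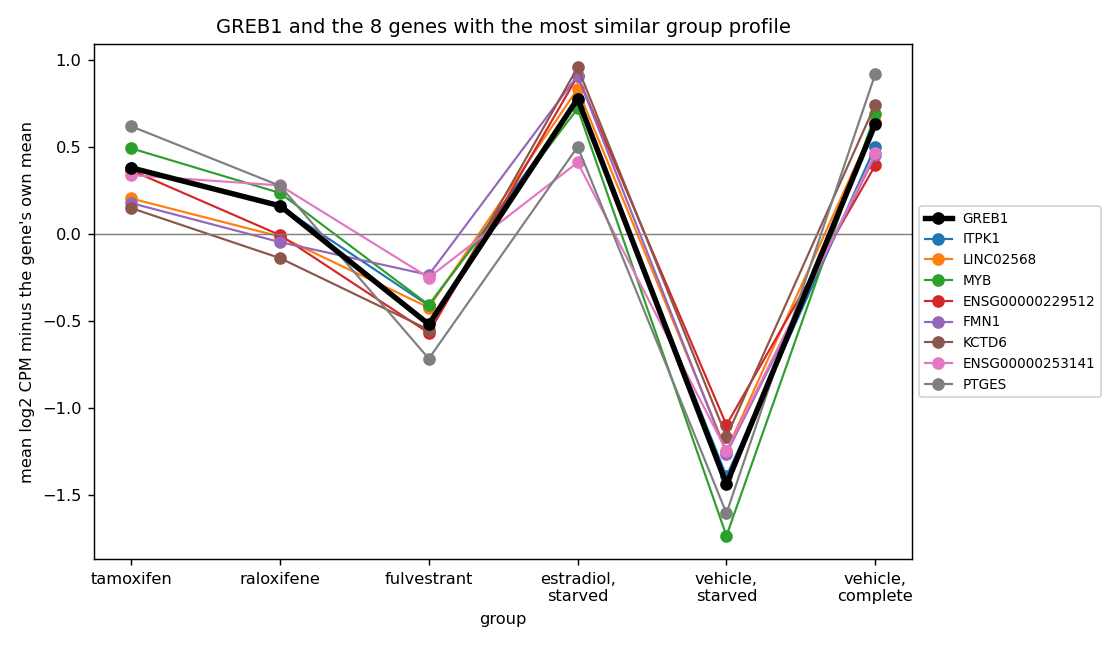
Mean log2 CPM of each group minus the gene's own mean over 6 groups (y axis) for GREB1 (black) and the 8 genes with the smallest root-mean-square difference from it (colours), by group (x axis). All lines are highest with estradiol or in complete vehicle cells and lowest in starved vehicle cells, and the ITPK1 line lies almost on that of GREB1.

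The other members had narrower profiles over the 6 groups. E2F6 was nearest to BRI3BP (0.0246), CTSB, which encodes the protease cathepsin B, and BCL6, a transcriptional repressor. BRI3BP averaged 87.5 ± 3.6 CPM with estradiol and 58.6 ± 1.3 CPM in starved vehicle cells. The genes nearest to GREB1L included GLI3, a transcription factor of Hedgehog signalling, and KPNB1. LPIN1 was nearest to RRP7BP, MTDH and SRRM2, and ROCK2 to ZNF583, USP11 and CAGE1.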

How the data were processed

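The authors deposited one table of unnormalized counts, in whole numbers, by Ensembl gene ID. Build hg38, Bowtie2 2.4.4, SAMtools 1.9 and cutadapt 1.8.1 are named in the submitters' processing notes. How genes were counted (tool, annotation, strand, exons or whole span) was not given in the sources used here, so overlapping and antisense genes are uncertain.

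Of the 60605 IDs, 60463 could be given a symbol, and 59410 genes were kept, the ID with the most counts standing for a shared symbol. In R 4.3.3, edgeR 4.0.16 removed low genes with filterByExpr (23375 left), scaled libraries by TMM and fitted a quasi-likelihood model of 6 groups to all 12 libraries. Benjamini-Hochberg adjustment ran over the 23375 genes of a comparison (threshold 0.05). The scripts were tested on simulated data. Groups came from the labels, whose titles number the libraries 1 and 2 and whose descriptions number them 3 and 4. The protocol text of the starved samples describes complete medium, so starvation was taken from the descriptions and the series design. The members, lists, window and rule for naming genes (window and list genes past the threshold, up to 4 a list in a comparison, and the 8 or 3 genes nearest in profile) were chosen with earlier results of these data known. Further list genes are named only to complete a count of calls and were chosen after their values were seen. One gene that the rule names is not reported here. Alternatives were RLE factors, library totals, no filter, the library number as a block, only the 4 libraries compared, DESeq2 1.42.0, and each library left out. Libraries of a group differed by more than sampling noise (chi-square per gene 1.20 to 2.34). Intervals and counts include PCR copies, which cannot be told apart. Promoter and miRNA sequences are from RefSeq, build GRCh38.p14.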

Additional observations from a re-analysis of the deposited data

How the results depend on the processing

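GREB1 kept its direction and its side of the threshold in 92 of the values from alternatives and moved past the threshold in 8, with no reversal. For tamoxifen against complete vehicle, its log2 fold change passed without the filter on low counts (-0.25, adjusted p = 6.33e-05), with the library number as a block (-0.25, adjusted p = 0.000115) and by DESeq2 (-0.26, adjusted p = 0.0223). For tamoxifen against raloxifene it passed without the filter (0.24, adjusted p = 0.00107) and with the block (0.22, adjusted p = 0.00471). For starved estradiol against complete vehicle it passed without the filter (0.18, adjusted p = 0.00208), with the block (0.14, adjusted p = 0.00594) and with only the 4 libraries compared (0.14, adjusted p = 0.0423). With 1 library left out, the lone library of a group being assumed to vary like the other groups, these values ranged from -0.31 to -0.21, from 0.19 to 0.25 and from 0.10 to 0.20, and none passed. GREB1L lost a call in 9 alternatives and gained one in 2 (with estradiol, adjusted p = 0.0310 with the block and 0.0491 with only the 4 libraries compared), E2F6 lost one in 6, and LPIN1 and ROCK2 kept their side in all 100 each. Of 76 calls of list and window genes 39 held under every alternative that gave an adjusted p, and of 50 calls of genes most like GREB1 36 did, with no reversal in either.

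The numbers of genes past the threshold varied more. The main counts were 2051 for estradiol, 4386 for starved against complete vehicle, 3788 for starved estradiol against complete vehicle, 3794 for fulvestrant against starved vehicle, and 270, 133 and 12 for fulvestrant, raloxifene and tamoxifen against complete vehicle. They were 24 for raloxifene against fulvestrant, 108 for tamoxifen against fulvestrant and 1 for tamoxifen against raloxifene. Without the filter, the counts were 354 for raloxifene and 93 for tamoxifen against vehicle, and 90, 170 and 65 for the drug pairs in the same order. With the library number as a block they were 498, 490 and 172 for fulvestrant, raloxifene and tamoxifen against vehicle and 77, 242 and 35 for the drug pairs. With only the 4 libraries compared they were 21 for tamoxifen against vehicle, 66 for tamoxifen against fulvestrant and 0 for tamoxifen against raloxifene by edgeR's test (525 at an unadjusted p under 0.05). DESeq2 gave 1078 for estradiol, 20 for tamoxifen, 2301 for starved against complete vehicle, 2050 for starved estradiol against complete vehicle and 1897 for fulvestrant against starved vehicle. With 1 library left out they ranged from 1155 to 1325, 2555 to 2875, 2229 to 2616 and 2155 to 2563 for the first 4 comparisons, from 143 to 197, 29 to 204 and 0 to 13 for the drugs against vehicle, and from 14 to 168, 48 to 86 and 0 to 164 for the drug pairs. Without raloxifene library 3 the counts were 204 against vehicle (148 higher, 56 lower), 168 against fulvestrant and 164 for tamoxifen against raloxifene (2 higher, 162 lower), and without raloxifene library 4 they were 202, 19 and 4. With library totals in place of TMM the share of higher genes with estradiol was 45.7%, against 57.4% with TMM, and no scaling moved the median of all genes by more than 0.037.

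The labels state no pairing of library numbers. Differences between libraries 3 and 4 correlated between groups across 14629 genes with r from 0.099 to 0.423, and the number is treated as a name only. NTSR2 is limited by depth, and with 2 libraries a group small changes of LPIN1 and E2F6 could not be called.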
